A study of Homo sapiens with 39 samples.

Results

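The Fc receptor-like family was measured in 4 human B cell lymphoma lines given inhibitors of bromodomain proteins. Its 6 measured members are FCRL1, FCRL2, FCRL3, FCRL4, FCRL5 and FCRLA, out of 15808 genes in the count table. The family was selected on the level of FCRL2, which fell by a large factor with NEO2734, and the other 5 members were then taken by name. FCRL2's own values with NEO2734, and with OTX015, which was set against the same control libraries, are therefore given as a description with no test, and so are its differences between lines in the same DMSO libraries and with CB103. All 6 members were in the table and all 6 passed the filter on low counts that left 12814 genes for testing.

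Toledo and DOHH2 are known as lymphoma lines of the germinal centre type, and TMD8 and OCILy10 as lines of the activated B cell type. Each was treated for 6 h with NEO2734, an inhibitor of the bromodomains of the BET proteins and of CBP/p300, with OTX015 (birabresib), an inhibitor of the BET bromodomains, or with DMSO, the vehicle. OCILy10 was also treated with CB103, an inhibitor of the Notch transcription complex. Every group had 3 libraries, which makes 13 groups and 39 libraries. The labels give no doses. They do not tell separate cultures from repeat libraries, so p-values reflect a spread between libraries that may be technical. Each line is a single established line and stands for itself alone.

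Fc receptor-like proteins are relatives of the receptors that bind the constant part of antibodies, and B cells are where most of them are made. FCRL1 to FCRL5 sit in the cell membrane. FCRL1 carries activating motifs in its cytoplasmic tail and acts as a co-receptor that adds to signals of the B cell receptor. FCRL2, FCRL3, FCRL4 and FCRL5 carry inhibitory motifs that recruit phosphatases and can dampen B cell receptor signals. FCRL3 binds secretory IgA, FCRL4 binds IgA and marks a tissue-based memory B cell, and FCRL5 binds IgG. FCRLA has no membrane anchor and stays inside the cell, where it binds immunoglobulin in the endoplasmic reticulum.

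All 6 genes lie on the long arm of chromosome 1 in build GRCh38. FCRL5 (ENSG00000143297.17, chr1:157513377-157552520), FCRL4 (ENSG00000163518.9, chr1:157573749-157598080), FCRL3 (ENSG00000160856.19, chr1:157674321-157700857), FCRL2 (ENSG00000132704.14, chr1:157745733-157777132) and FCRL1 (ENSG00000163534.13, chr1:157794403-157820105) follow each other on the minus strand. FCRLA (ENSG00000132185.15, chr1:161706972-161714352) lies apart from them, on the plus strand, beside the classical Fc gamma receptor genes. An antisense gene, ENSG00000227217, lies within FCRL3, and the strandedness of the libraries is not given in the sources used here, so reads of that overlap cannot be assigned to one of the pair.

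The start regions of the members are shown because the inhibitors act on proteins that bind chromatin at promoters and enhancers. Each line holds 150 bases from RefSeq on GRCh38.p14, from 100 bases before the transcription start to 50 bases from it, 5′ to 3′ on the gene's own strand. Capitals mark the letters ACTTCC, the reverse complement of GGAAGT, a core recognised by ETS-family transcription factors. The windows are chr1:157552466-157552615 for FCRL5, chr1:157598036-157598185 for FCRL4, chr1:157700720-157700869 for FCRL3, chr1:157777083-157777232 for FCRL2, chr1:157820071-157820220 for FCRL1 and chr1:161707129-161707278 for FCRLA.
FCRL5: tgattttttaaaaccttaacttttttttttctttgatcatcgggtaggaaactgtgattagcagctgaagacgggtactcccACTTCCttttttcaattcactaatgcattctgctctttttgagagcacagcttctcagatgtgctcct
FCRL4: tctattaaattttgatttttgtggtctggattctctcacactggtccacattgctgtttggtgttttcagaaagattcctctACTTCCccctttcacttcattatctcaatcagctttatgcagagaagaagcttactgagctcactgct
FCRL3: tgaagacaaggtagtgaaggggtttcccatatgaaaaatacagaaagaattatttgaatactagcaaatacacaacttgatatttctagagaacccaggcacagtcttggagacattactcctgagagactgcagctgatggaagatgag
FCRL2: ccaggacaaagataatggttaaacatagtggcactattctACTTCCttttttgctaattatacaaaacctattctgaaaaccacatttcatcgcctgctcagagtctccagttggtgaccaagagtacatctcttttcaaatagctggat
FCRL1: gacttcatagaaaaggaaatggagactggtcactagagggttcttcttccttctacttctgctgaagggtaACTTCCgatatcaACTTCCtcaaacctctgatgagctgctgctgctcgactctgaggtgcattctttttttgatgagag
FCRLA: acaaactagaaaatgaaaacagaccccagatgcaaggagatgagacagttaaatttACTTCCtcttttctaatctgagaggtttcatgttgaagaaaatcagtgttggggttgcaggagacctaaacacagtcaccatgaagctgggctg

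In the longer promoter windows of 300 bases, GGAAGT on either strand was found in 5 of 6 members and in 22.8% of 35116 RefSeq promoters. FCRL3 was the member without it. In FCRL5, FCRL4, FCRL2, FCRL1 and FCRLA the copy nearest the start lay 18, 18, 60, 16 and 44 bases upstream, and further copies lay 29 and 217 bases upstream in FCRL1 and 151 bases upstream in FCRL5. A further 3 motifs were searched on both strands in the same windows: ATGCAAA, the octamer core, is in 4.46% of all promoters, GTGGGAA, a core of the Notch partner RBPJ, in 6.25%, and CACGTG, the E-box bound by MYC, which is its own reverse complement, in 7.26%. None of the 6 members held any of these 3. The motifs were chosen after the sequences had been seen, and a match describes letters only.

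The libraries held 1000281 to 11668542 counts. Of the 39, 15 held at least 6670250 counts and are called deep here, and 24 held at most 3420458 and are called shallow. Replicate 1 was deep in all groups but Toledo NEO2734, where replicate 3 was, and replicate 2 was also deep in OCILy10 DMSO and OCILy10 NEO2734. In 3 libraries, genes otherwise private to another line were present. Replicate 2 of Toledo DMSO held the private genes of OCILy10 at 70.4% of their usual level and its own at 41.5%, replicate 2 of OCILy10 CB103 held those of Toledo at 27.1%, and replicate 3 of DOHH2 NEO2734 held those of OCILy10 at 12%. No other library held those of another line above 2.3%. The private genes were chosen by their low level in those other libraries, so this value is no independent check. Calls of the members and of the genes named below that change without these 3 libraries are given both ways. All 5 B cell markers, MS4A1, CD79A, CD79B and PAX5 among them, were in the table, with a summed level of 365 to 3592 CPM, against 1 of 5 T cell markers (CD4, 0 to 10.6 CPM), 2 of 5 monocyte markers (LYZ and CSF1R, summed 0 to 4.79 CPM) and 0 of 4 NK cell markers. CPM here means counts per 1000000 counts of the library total after TMM scaling.

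In DMSO the lines differed in which family members they expressed. FCRLA had the highest mean level per kilobase of exon of the 6 in all 4 lines, 53.9 ± 24.6 CPM per kb in DOHH2 (mean ± SD, n = 3 throughout), 24.9 ± 9.86 in OCILy10, 57.2 ± 4.44 in TMD8 and 87.9 ± 52.6 in Toledo. That order did not hold in every single library of TMD8 and OCILy10. FCRL2, FCRL3 and FCRL5 were highest in the activated B cell type lines. Per kilobase, FCRL3 stood at 46.4 ± 21 CPM in TMD8, 14.2 ± 4.36 in OCILy10, 1.04 ± 0.695 in DOHH2 and 4.16 ± 6.75 in Toledo, where it was 0.265 without replicate 2. FCRL5 had 28.5 ± 3.02, 12.6 ± 4.71 and 2.44 ± 0.929 CPM per kb in TMD8, OCILy10 and DOHH2, and 4.44 ± 5.78 in Toledo, or 1.1 without replicate 2. FCRL2 had 21.9 ± 6.76 in TMD8, 15.2 ± 3.98 in OCILy10, 5.45 ± 4.59 in Toledo (2.8 without replicate 2) and 2.22 ± 0.843 in DOHH2. FCRL4 had its highest level in DOHH2, 5.71 ± 2.01 CPM per kb, then 2.81 ± 2.69 in OCILy10, 1.56 ± 0.864 in TMD8 and 0.793 ± 1.15 in Toledo (0.132 without replicate 2). FCRL1 was low in OCILy10, 0.212 ± 0.149 CPM per kb, against 1.58 ± 0.854 in DOHH2, 1.82 ± 0.973 in TMD8 and 1.97 ± 1.92 in Toledo.

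Differences between pairs of lines in DMSO were tested for the 5 members other than FCRL2. Of these 30 differences, 11 passed edgeR's quasi-likelihood test at an adjusted p of 0.05 (Benjamini-Hochberg over all 12814 genes). The choice of the family used the DMSO libraries, so FCRL2 is given with no test. Among the 5, DOHH2 against OCILy10 had FCRL1 higher and FCRL3 and FCRL5 lower, with backgrounds of 13.9% of all genes higher and 16.2% lower. FCRL1 was higher in DOHH2 (log2 difference ± SE 3.07 ± 0.83, adjusted p = 0.00635 by edgeR). FCRL3 (-3.89 ± 0.86) and FCRL5 (-2.35 ± 0.57) were lower there, and FCRL2, with no test, was -2.73 ± 0.53. FCRL3 and FCRL5 were also lower in DOHH2 than in TMD8, by log2 differences of -5.59 ± 0.86 and -3.52 ± 0.57, with a background of 14.9% lower. FCRL2 was -3.26 ± 0.53 there, with no test. FCRL3 and FCRL5 were higher in TMD8 than in Toledo, by 3.42 ± 0.80 and 2.65 ± 0.56, with a background of 10.1% higher. FCRL2 was 1.98 ± 0.52 there, with no test. Without replicate 2 of Toledo the TMD8 over Toledo differences of FCRL2, FCRL3 and FCRL5 grew to 2.96, 7.56 and 4.68. OCILy10 against TMD8 had 1 member lower, FCRL1 (-3.23 ± 0.82, background 10.1% lower). OCILy10 against Toledo had 2 lower, FCRL1 (-3.27 ± 0.82) and FCRLA (-1.81 ± 0.55), with a background of 11.3% lower. The FCRL1 call against TMD8 was lost without replicate 1 of OCILy10 DMSO (adjusted p = 0.05003 by edgeR). That against Toledo was lost without replicate 1 or 2 of OCILy10 DMSO or replicate 3 of Toledo DMSO (0.0511 to 0.116), and was -2.21 without the last of these. The FCRLA call was lost without replicate 2 or 3 of OCILy10 DMSO or replicate 1 of Toledo DMSO (0.064 to 0.286), and was -1.15 without the last. FCRL3 was -4.55 against OCILy10 and -6.26 against TMD8 without replicate 2 of DOHH2 DMSO, and TMD8 over Toledo was 2.83 for FCRL3 without replicate 1 of Toledo DMSO.

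DOHH2 against Toledo had 1 member higher, FCRL4, by a log2 difference of 2.77 (adjusted p = 0.0468 by edgeR, background 7.96% higher). That call is near the threshold and was lost without any 1 of 20 libraries (adjusted p = 0.0501 to 0.141), and without replicate 1 of Toledo DMSO the difference was 2.08. Without replicate 2 of Toledo the other 2 Toledo libraries held 1 FCRL4 count, so no fold is given, and the adjusted p was 0.00106. Leaving out that 1 library brought further pairs past the threshold. Without it, OCILy10 was above Toledo for FCRL3 (5.86, adjusted p = 1.29e-05) and FCRL5 (3.51, adjusted p = 1.3e-05), and FCRL2 was 2.43 with no test. FCRL4 also passed then in OCILy10 (0.00307) and TMD8 (0.0123) over Toledo, against that 1 count. OCILy10 then also lay below TMD8 for FCRL3 (adjusted p = 0.0226) and FCRL5 (adjusted p = 0.0312). With all libraries, DOHH2 and TMD8 did not differ beyond their spread for FCRL1 (adjusted p = 0.931) or FCRLA (0.956). FCRL3 also differed with depth within a group: in TMD8 DMSO the deep library had 144 CPM and the shallow ones 388 and 376, and the part of depth in the levels was not tested.

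**Figure D1:**
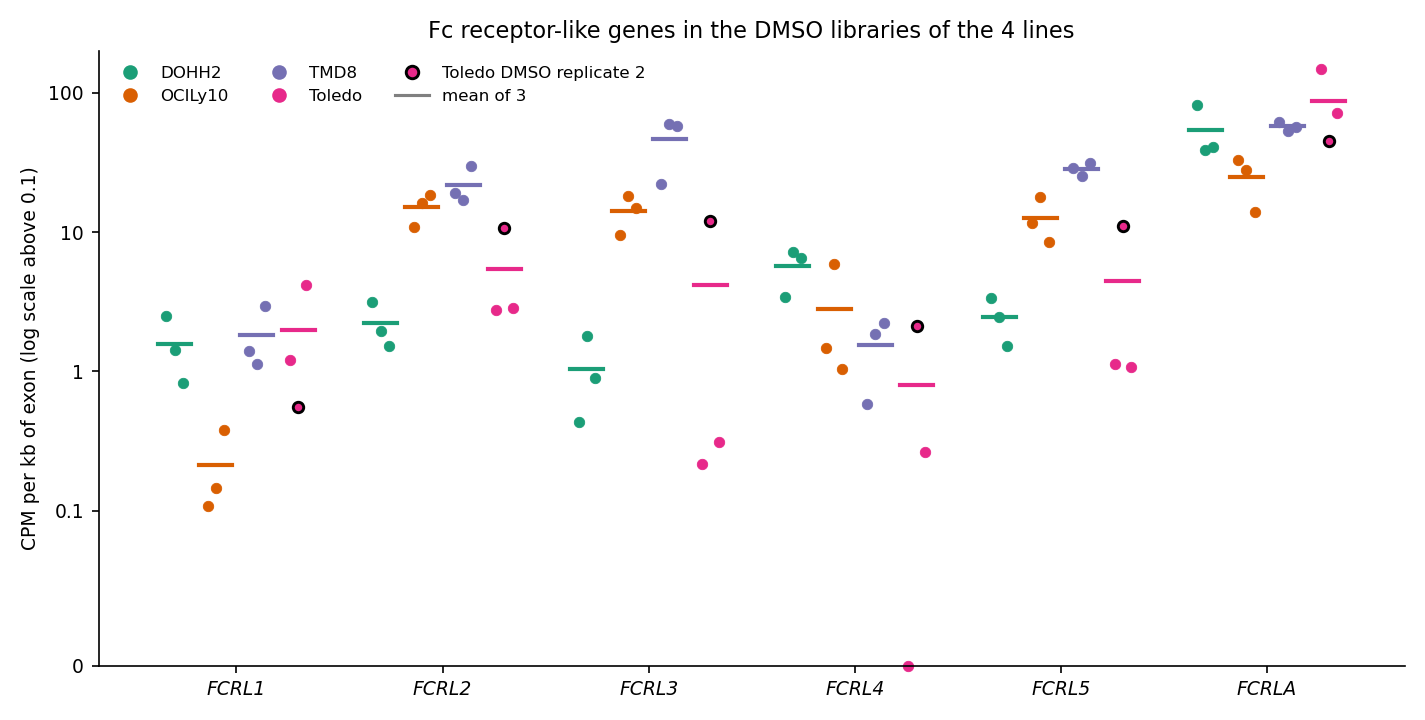
Levels of the 6 members in DMSO by line, as CPM per kilobase of exon on an axis that is logarithmic above 0.1 and linear below. Points are single libraries and the dash is the mean of 3; FCRL2, FCRL3 and FCRL5 are highest in TMD8, FCRL4 in DOHH2, and the ringed Toledo library, which holds OCILy10 genes, lies above the other Toledo libraries for FCRL2 to FCRL5.

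With NEO2734 the family fell in the average over the 4 lines. The 5 members other than FCRL2 were all lower than with DMSO, where 11.2% of all tested genes were called lower and 9.29% higher. With OTX015, 4 of the 5 were lower, against 6.06% of all genes lower and 5.53% higher. Without the 3 libraries that hold another line's genes, 4 of 5 passed with each compound. Without Toledo, a setting added after the data were seen, 4 of 5 passed with NEO2734 and 2 of 5 with OTX015. The median log2 difference of these 5 members was -1.56 with NEO2734 and -1.27 with OTX015, beside -0.02 and -0.03 over all tested genes. With FCRL2, whose fall picked the family, the medians were -2.08 and -1.94. Both comparisons use the same 12 DMSO libraries. The RNA came from whole cultures, so fewer expressing cells and less RNA per cell cannot be told apart. In the 15 deep libraries alone 1 of 5 was lower with NEO2734 and 0 of 5 with OTX015, and in the 24 shallow ones alone 4 of 5 with each. In the deep libraries 11 of 13 groups have 1 library, so 2 residual degrees of freedom remain and lone libraries are assumed to vary like the OCILy10 DMSO and NEO2734 groups. The differences there were -1.32 for FCRL1, -1.71 for FCRL3, -0.47 for FCRL5 and -0.91 for FCRLA with NEO2734, and -0.93, -1.93, -0.32 and -0.65 with OTX015.

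**Figure D2:**
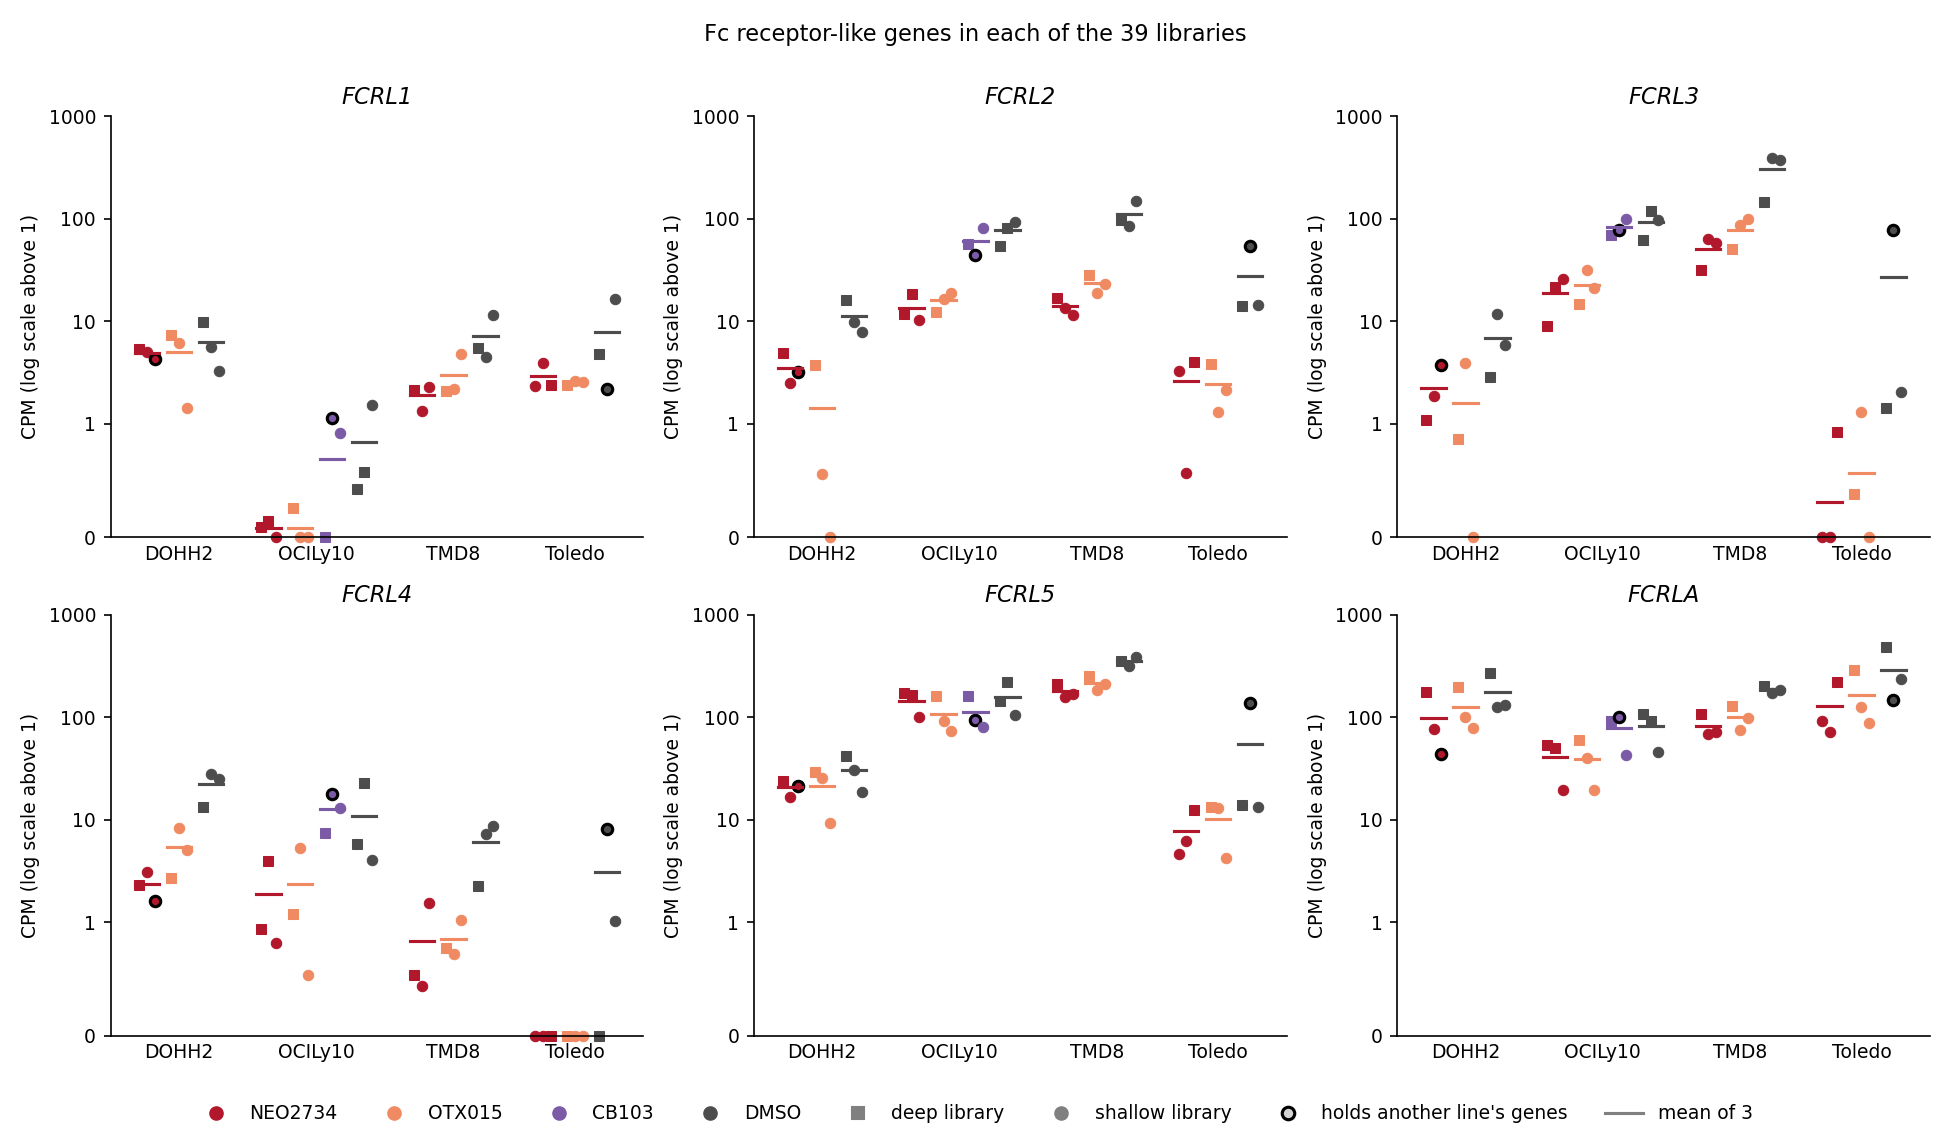
Level in CPM of each member in all 39 libraries, by line, with NEO2734, OTX015, CB103 and DMSO from left to right, on an axis that is linear up to 1 and logarithmic above. Squares are deep libraries, circles shallow ones, a black ring marks a library that holds another line's genes and a dash is the mean of 3; FCRL2 lies below DMSO in every NEO2734 and OTX015 library, while FCRL5 and FCRLA overlap with DMSO in several lines.

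FCRL2, an inhibitory receptor of memory B cells, was lower in every library with NEO2734 or OTX015 than in every DMSO library of its line. TMD8 had the highest level: 16.7, 13.6 and 11.5 CPM with NEO2734, 28.4, 18.6 and 23.2 with OTX015 and 96.8, 85.3 and 149 with DMSO. In OCILy10 the values were 11.7, 18.3 and 10.2 CPM with NEO2734, 12.4, 16.6 and 18.9 with OTX015 and 54.6, 82.1 and 93.9 with DMSO. In these 2 lines the highest library with a compound stayed well below the lowest DMSO library. DOHH2 started lower, with 4.84, 2.49 and 3.18 CPM with NEO2734, 3.69, 0.558 and 0 with OTX015 and 16, 9.9 and 7.76 with DMSO. Toledo had 3.27, 0.563 and 4.02 with NEO2734, 3.79, 1.31 and 2.13 with OTX015 and 14, 54.4 and 14.3 with DMSO, where the high value is the library that holds OCILy10 genes. The groups did not overlap in any line with either compound, with or without that library.

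The log2 differences of FCRL2 with NEO2734 were -1.63 ± 0.59 in DOHH2, -2.51 ± 0.52 in OCILy10, -2.97 ± 0.53 in TMD8 and -3.27 ± 0.58 in Toledo (± SE). With OTX015 they were -2.53 ± 0.63, -2.28 ± 0.53, -2.23 ± 0.52 and -3.38 ± 0.59 in the same order of lines. Replicate 1 of DOHH2 OTX015 held 30 of the 31 FCRL2 counts of its group, and without it the DOHH2 value, -5.10, rests on 1 count. Without replicate 2 of Toledo DMSO the Toledo differences were -2.29 with NEO2734 and -2.40 with OTX015. Averaged over the 3 lines other than Toledo, FCRL2 was -2.37 ± 0.32 with NEO2734, a 5.16-fold lower level, and -2.35 ± 0.33 with OTX015, a 5.09-fold lower level (-3.20 without replicate 1 of DOHH2 OTX015). The averaged NEO2734 difference was smaller in deep libraries (-2.08) than in shallow ones (-3.04), which include the Toledo DMSO library that holds OCILy10 genes.

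FCRL3, an inhibitory receptor that binds secretory IgA, had the highest mean level per kilobase of the membrane-bound members in TMD8 DMSO, and FCRL5 had the highest there with NEO2734 and OTX015. In TMD8 FCRL3 had 31.4, 63.4 and 57.4 CPM with NEO2734, 50.9, 86.1 and 98.4 with OTX015 and 144, 388 and 376 with DMSO. OCILy10 had 9.0, 21.8 and 25.7 with NEO2734, 14.8, 31.7 and 21 with OTX015 and 62.6, 119 and 96.9 with DMSO. No compound library reached a DMSO library in either line. In DOHH2 the values were low and overlapped, 1.09, 1.87 and 3.71 with NEO2734, 0.861, 3.9 and 0 with OTX015 and 2.83, 11.8 and 5.82 with DMSO. The third NEO2734 library of DOHH2 holds OCILy10 genes, and without it the NEO2734 and DMSO groups were apart. In Toledo, FCRL3 had 0, 0 and 0.927 CPM with NEO2734, 0.379, 1.31 and 0 with OTX015 and 1.42, 78.1 and 2.05 with DMSO. The groups did not overlap, but almost all of the DMSO mean came from the library that holds OCILy10 genes.

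Averaged over 4 lines, FCRL3 fell with both compounds, with a log2 difference of -3.04 ± 0.50 for NEO2734 (adjusted p = 3.99e-05 by edgeR) and -3.01 ± 0.53 for OTX015 (0.000217). All 9 FCRL3 counts of Toledo with NEO2734 were in replicate 3, and the averaged NEO2734 value was -4.13 without it, which rests on a Toledo group with no count. Without replicate 2 of Toledo DMSO these differences were -2.00 (adjusted p = 0.000277) and -1.98 (0.00133). Over the 3 lines other than Toledo they were -2.19 ± 0.51 for NEO2734 (adjusted p = 0.0043) and -2.05 ± 0.53 for OTX015 (0.0197), a call lost without replicate 2 of DOHH2 DMSO or replicate 1 of DOHH2 OTX015 (0.0534 to 0.0572). Within lines, the differences with NEO2734 were -1.67 ± 1.05 in DOHH2, -2.32 ± 0.79 in OCILy10 and -2.59 ± 0.79 in TMD8, none of them past the threshold in the fit without a replicate block. With the replicate number as a block, in lines where same-numbered libraries deviated together, OCILy10 (-2.38, adjusted p = 0.00338) and TMD8 (-2.51, adjusted p = 0.00117) passed with NEO2734. TMD8 also passed with OTX015 in the blocked fit (-1.87, adjusted p = 0.0238). Leaving out replicate 2 of Toledo DMSO alone also gave adjusted p = 0.0289 in OCILy10 and 0.00835 in TMD8 with NEO2734.

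The Toledo differences of FCRL3, -5.57 ± 1.26 with NEO2734 (adjusted p = 0.00473 by edgeR) and -5.92 ± 1.41 with OTX015 (0.013), rest on replicate 2 of Toledo DMSO. Without it they were -1.41 (adjusted p = 0.791) and -1.77 (0.759). The OTX015 call in Toledo was also lost without any 1 of its 3 OTX015 libraries (adjusted p = 0.068 to 0.107). Without replicate 1 of Toledo DMSO the Toledo differences were -6.17 with NEO2734 and -6.62 with OTX015, and without replicate 3 of NEO2734 its compound group held no count. The averaged NEO2734 difference was -1.71 in deep libraries alone and -3.88 in shallow libraries alone. In Toledo the shallow NEO2734 libraries held no FCRL3 count, so -3.88 rests on an empty group. The shallow DMSO libraries there include the one that holds OCILy10 genes. The part of depth was not tested.

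FCRL4, an inhibitory IgA receptor of tissue memory B cells, was highest in DOHH2, where every library with a compound was below every DMSO library. DOHH2 had 2.3, 3.11 and 1.59 CPM with NEO2734, 2.71, 8.37 and 5.02 with OTX015 and 13.3, 27.8 and 25.2 with DMSO. OCILy10 had 0.938, 3.92 and 0.815 with NEO2734, 1.21, 5.28 and 0.539 with OTX015 and 5.75, 22.9 and 4.02 with DMSO. In OCILy10 replicate 2 was the highest library in each of these 3 groups. The NEO2734 libraries lay just below the DMSO ones, and the OTX015 libraries overlapped with them. TMD8 had 0.533, 0.437 and 1.53 with NEO2734, 0.777, 0.717 and 1.05 with OTX015 and 2.27, 7.2 and 8.65 with DMSO, with no overlap between compound and DMSO libraries. Toledo had no FCRL4 count in its 6 compound libraries and 0, 8.19 and 1.02 CPM with DMSO, that is 0, 30 and 1 counts. Against a floor of 3 counts over each compound group, the Toledo mean was at least 14.0-fold lower with NEO2734 and at least 12.1-fold lower with OTX015, but 30 of the 31 DMSO counts came from the library that holds OCILy10 genes. Without it the DMSO group held 1 count, under the floor of 3, and no fold can be given.

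Over the 3 lines with FCRL4 counts in every group, FCRL4 fell with NEO2734, with a log2 difference of -2.90 ± 0.59 (adjusted p = 0.00163 by edgeR), a 7.48-fold lower level. It also fell with OTX015, with a log2 difference of -2.40 ± 0.59 (adjusted p = 0.0163), a 5.27-fold lower level. The test over all 4 lines also passed, with adjusted p = 5.62e-05 for NEO2734 and 0.000524 for OTX015 (0.0067 and 0.0258 without replicate 2 of Toledo DMSO), and with Toledo set at its bound, which rests on that library, the mean of the 4 lines was -3.13 and -2.70. The OTX015 call over 3 lines was lost without replicate 2 of OCILy10 DMSO (0.0507). By line, the NEO2734 differences were -3.23 ± 0.98 in DOHH2, -2.49 ± 0.96 in OCILy10 and -2.99 ± 1.11 in TMD8, and the OTX015 differences were -2.06 ± 0.95, -2.37 ± 0.99 and -2.77 ± 1.10. None of these passed without a block. In the blocked fit NEO2734 passed in DOHH2 (-3.07, adjusted p = 0.000732), OCILy10 (-2.47, 0.0039) and TMD8 (-2.71, 0.00433), and OTX015 passed in DOHH2 (-2.12, 0.023) and TMD8 (-2.44, 0.0188). The DOHH2 difference with NEO2734 also passed without replicate 1 (adjusted p = 0.0368) or replicate 2 (0.0352) of Toledo DMSO. In Toledo itself the adjusted p was 0.019 with NEO2734 and 0.0308 with OTX015. Without replicate 2 of Toledo DMSO these became 0.742 and 0.807, and without any 1 Toledo library of the compound they were 0.0697 to 0.101 with NEO2734 and 0.107 to 0.155 with OTX015.

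FCRL5, an inhibitory receptor for IgG, changed by less than FCRL3 and FCRL4 did, and in OCILy10 the compound and DMSO libraries overlapped. TMD8 had 213, 157 and 169.8 CPM with NEO2734, 254, 186 and 214 with OTX015 and 356, 316 and 391 with DMSO, and the groups did not overlap. OCILy10 had 171, 166 and 101 with NEO2734, 161, 92.8 and 72.8 with OTX015 and 144, 220.4 and 105 with DMSO. In DOHH2 the values were 24.1, 16.8 and 21.2 with NEO2734, 29.4, 25.7 and 9.32 with OTX015 and 41.8, 30.3 and 18.8 with DMSO, which also overlapped. Toledo had 4.68, 6.19 and 12.5 with NEO2734, 13.3, 13.1 and 4.26 with OTX015 and 14, 138 and 13.3 with DMSO. The Toledo DMSO library at 138 CPM is the one that holds OCILy10 genes, and the other DMSO libraries of Toledo lay just above its compound libraries.

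Averaged over 4 lines the FCRL5 difference was -1.10 ± 0.29 with NEO2734 (adjusted p = 0.0065 by edgeR) and -1.04 ± 0.29 with OTX015 (0.0171). Both calls rest on replicate 2 of Toledo DMSO: without it the differences were -0.59 (adjusted p = 0.0509) and -0.53 (0.124). Without Toledo they were -0.55 ± 0.33 (adjusted p = 0.315) and -0.57 ± 0.33 (0.394). By line, the NEO2734 differences were -0.56 ± 0.59 in DOHH2, -0.10 ± 0.56 in OCILy10, -0.97 ± 0.56 in TMD8 and -2.76 ± 0.61 in Toledo, and the OTX015 differences were -0.48 ± 0.59, -0.52 ± 0.56, -0.70 ± 0.56 and -2.45 ± 0.60. The Toledo values passed the test (adjusted p = 0.0101 and 0.0297), but without replicate 2 of Toledo DMSO they were -0.72 (adjusted p = 0.749) and -0.41 (0.954). The NEO2734 call in Toledo was also lost without its NEO2734 replicate 1 (adjusted p = 0.0762) or replicate 2 (0.0697) and its value was -3.37 without replicate 3, and the OTX015 call without any 1 of its OTX015 libraries (0.0764 to 0.186).

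FCRL1, the member with activating motifs, fell in the average over the lines with both compounds. TMD8 had 2.13, 1.31 and 2.29 CPM with NEO2734, 2.07, 2.15 and 4.74 with OTX015 and 5.5, 4.43 and 11.5 with DMSO, and OTX015 alone overlapped with DMSO there. OCILy10 had 0.0938, 0.145 and 0 with NEO2734, 0.259, 0 and 0 with OTX015 and 0.426, 0.576 and 1.51 with DMSO, with few counts in each library and no overlap between the compound and DMSO groups. In DOHH2 the groups overlapped, at 5.32, 4.98 and 4.24 with NEO2734, 7.38, 6.14 and 1.43 with OTX015 and 9.86, 5.57 and 3.23 with DMSO. Toledo had 2.34, 3.94 and 2.37 with NEO2734, 2.4, 2.61 and 2.56 with OTX015 and 4.74, 2.19 and 16.4 with DMSO. Here the DMSO library that holds OCILy10 genes was the low one, and without it both compound groups lay below DMSO.

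The averaged FCRL1 difference was -1.56 ± 0.45 with NEO2734 (adjusted p = 0.00769 by edgeR) and -1.27 ± 0.44 with OTX015 (0.0489). Over the 3 lines other than Toledo it was -1.63 ± 0.54 (adjusted p = 0.0239, lost without replicate 1 of DOHH2 DMSO, replicate 3 of OCILy10 or TMD8 DMSO or replicate 1 of OCILy10 NEO2734, 0.0533 to 0.0583) and -1.19 ± 0.53 (0.183). The OTX015 call over 4 lines was lost without any 1 of 28 of the 39 libraries (adjusted p = 0.052 to 0.112) and with the replicate block (-1.07, 0.0525). All 3 FCRL1 counts of OCILy10 with OTX015 were in replicate 1, and the averaged value without it, -1.96, rests on an OCILy10 group with no count. By line, the differences with NEO2734 were -0.39 ± 0.77 in DOHH2, -2.62 ± 1.16 in OCILy10, -1.88 ± 0.80 in TMD8 and -1.36 ± 0.78 in Toledo. With OTX015 they were -0.31 ± 0.77, -1.98 ± 1.15, -1.26 ± 0.78 and -1.54 ± 0.79 in the same order, and no single line passed the test with either compound. The Toledo values depend on single DMSO libraries. Without replicate 3 of Toledo DMSO they were -0.30 with NEO2734 and -0.47 with OTX015. Without replicate 2 they were -1.83 and -2.01.

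FCRLA, the intracellular member, fell in the average over the lines with NEO2734. TMD8 had 108, 68.7 and 71.1 CPM with NEO2734, 130.4, 75.3 and 99.5 with OTX015 and 203, 175 and 185 with DMSO, with no overlap. In the other lines compound and DMSO libraries overlapped. DOHH2 had 176, 76.5 and 44 with NEO2734, 198, 100.4 and 78.8 with OTX015 and 269, 127 and 133 with DMSO. OCILy10 had 53.6, 50.2 and 19.6 with NEO2734, 59.4, 40.0 and 19.4 with OTX015 and 108, 91.1 and 45.7 with DMSO. Toledo had 92.6, 72.6 and 222 with NEO2734, 287, 126 and 87.8 with OTX015 and 481, 148 and 234 with DMSO. The high values within these groups were mostly those of the deep library, which was the highest of the 3 in 12 of 13 groups.

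The averaged FCRLA difference was -1.03 ± 0.27 with NEO2734 (adjusted p = 0.00708 by edgeR), a 2.05-fold lower level, and by line it was -0.83 ± 0.55 in DOHH2, -0.98 ± 0.55 in OCILy10, -1.17 ± 0.55 in TMD8 and -1.15 ± 0.55 in Toledo. FCRLA was the 1 member that passed with NEO2734 in the deep libraries alone (-0.91, adjusted p = 0.0161), a test in which only the 2 OCILy10 groups with 2 deep libraries give a spread, and in the shallow ones alone it was -1.22 (0.00161). With OTX015 the averaged difference of -0.79 ± 0.27 did not pass (adjusted p = 0.0583). With the replicate block, which also covered lines whose numbers did not pair, it passed (-0.80, 0.00141). Without the block it passed without any 1 of 7 libraries (adjusted p = 0.0229 to 0.0471): replicate 3 of OCILy10 DMSO, replicate 2 of Toledo DMSO, replicate 1 of DOHH2 NEO2734, replicate 3 of OCILy10 NEO2734, or replicate 1 of DOHH2, OCILy10 or Toledo OTX015. The same held without the 3 libraries that hold another line's genes (-0.88, 0.0342). In TMD8 with NEO2734 the blocked fit passed (-1.20, adjusted p = 0.0302), whereas the fit without a block did not (0.392).

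**Figure D3:**
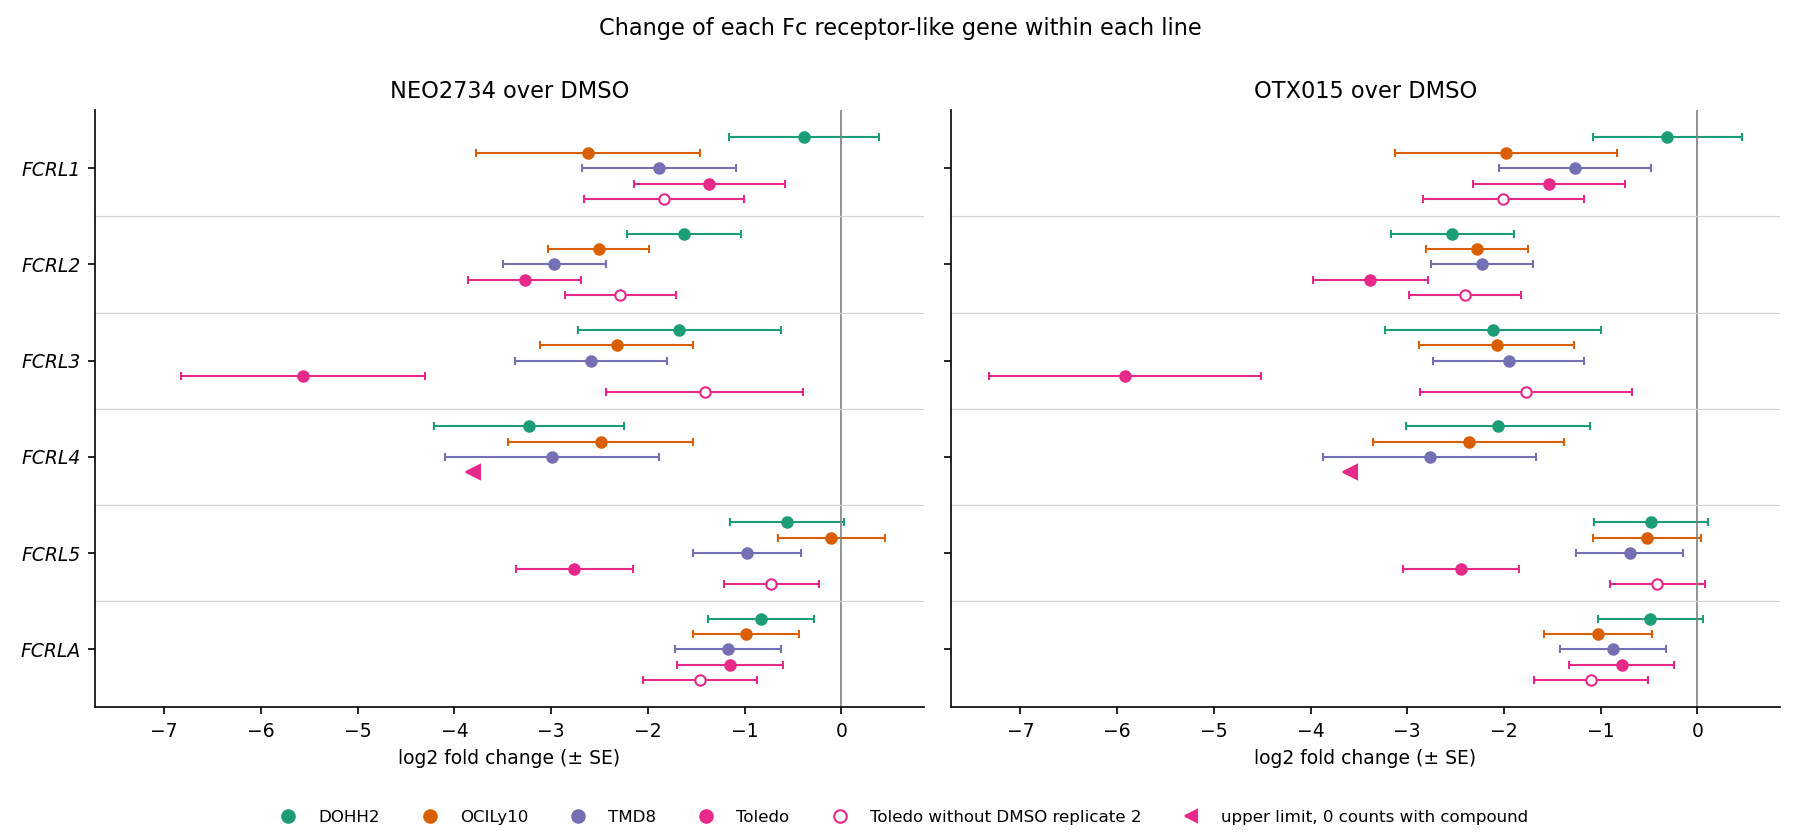
Log2 difference from DMSO of each member in each line, with NEO2734 and OTX015, ± 1 SE. An open circle is the Toledo value without replicate 2 of DMSO and a triangle is the bound for FCRL4 in Toledo. All values lie below 0, and the Toledo values of FCRL3 and FCRL5 move towards 0 without that library.

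Single lines gave few calls. With NEO2734, 0 of the 5 members other than FCRL2 passed in DOHH2, OCILy10 or TMD8, where 1.47%, 0.359% and 1.44% of all genes were called lower. In Toledo 3 of 5 passed, where 4.2% of all genes were called lower. With OTX015, 0 of 5 passed in DOHH2, OCILy10 or TMD8 (0.0546%, 0.0312% and 0.304% of all genes) and 3 of 5 in Toledo (2.59%). The 3 in Toledo were FCRL3, FCRL4 and FCRL5 with both compounds, and none of them passed without replicate 2 of Toledo DMSO.

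Counting members whose 3 compound libraries all lay below the 3 DMSO libraries, FCRL2 left out, TMD8 had the most. With NEO2734 there were 5 of 5 in TMD8, 3 of 5 in OCILy10, 1 of 5 in DOHH2 and 2 of 5 in Toledo, where 10.6%, 10.2%, 9.73% and 6.57% of all genes were apart in that direction. With OTX015 there were 4, 2, 1 and 2 of 5 in the same order of lines, with backgrounds of 7.9%, 6.97%, 6.52% and 4.82%. Without the 3 libraries that hold another line's genes, the NEO2734 counts became 2 of 5 in DOHH2 and 4 of 5 in Toledo, and the OTX015 count in Toledo became 3 of 5. Over the 8 combinations of line and compound, FCRL3 was apart in 6, FCRL4 in 5, FCRL5 in 4, FCRL1 in 3 and FCRLA in 2, and FCRL2, as a description, in 8. Some of these rest on few counts or a narrow gap. FCRL1 in OCILy10 held 3, 0 and 0 counts with OTX015 and 4, 4 and 3 with DMSO. FCRL5 in Toledo reached 13.27 CPM with OTX015, where the lowest DMSO library had 13.30.

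The members did not all fall equally. Among the 5 taken by name, FCRL3 and FCRL4 changed more than FCRL5 in the 3 lines other than Toledo. For each pair of members the difference between their log2 changes was tested over libraries by an exact permutation of the compound and DMSO labels within each line (two-sided, 8000 arrangements), with Benjamini-Hochberg adjustment over the 20 tests, 10 pairs with each compound. With NEO2734, FCRL3 minus FCRL5 was -1.56 (adjusted p = 0.029, exact permutation test) and FCRL4 minus FCRL5 was -1.95 (adjusted p = 0.01, exact permutation test). With OTX015 the same differences were -1.43 and -1.46 (adjusted p = 0.029 each, exact permutation test). FCRL4 also changed more than FCRLA with NEO2734, by -1.40 (adjusted p = 0.029, exact permutation test). The other 15 tests did not pass, the nearest with an adjusted p of 0.0533 in the exact permutation test. Without the DOHH2 NEO2734 library that holds OCILy10 genes the same 5 tests passed, with adjusted p of 0.03 to 0.047. These tests were added after the values had been seen, and the 2 compounds share the DMSO libraries.

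FCRL2 was left out of these tests, and its reads are given per read of FCRL5 instead, as a description. In TMD8 there were 0.0774 ± 0.00933 FCRL2 reads per FCRL5 read with NEO2734, 0.107 ± 0.00588 with OTX015 and 0.308 ± 0.0644 with DMSO (SD, n = 3 each). OCILy10 had 0.0933 ± 0.0221, 0.172 ± 0.0912 and 0.547 ± 0.297, and DOHH2 had 0.166 ± 0.03, 0.0491 ± 0.0671 and 0.374 ± 0.0442, in the order NEO2734, OTX015, DMSO. This ratio needs no scaling between libraries, and in these 3 lines it was lower with each compound than with DMSO.

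**Figure D4:**
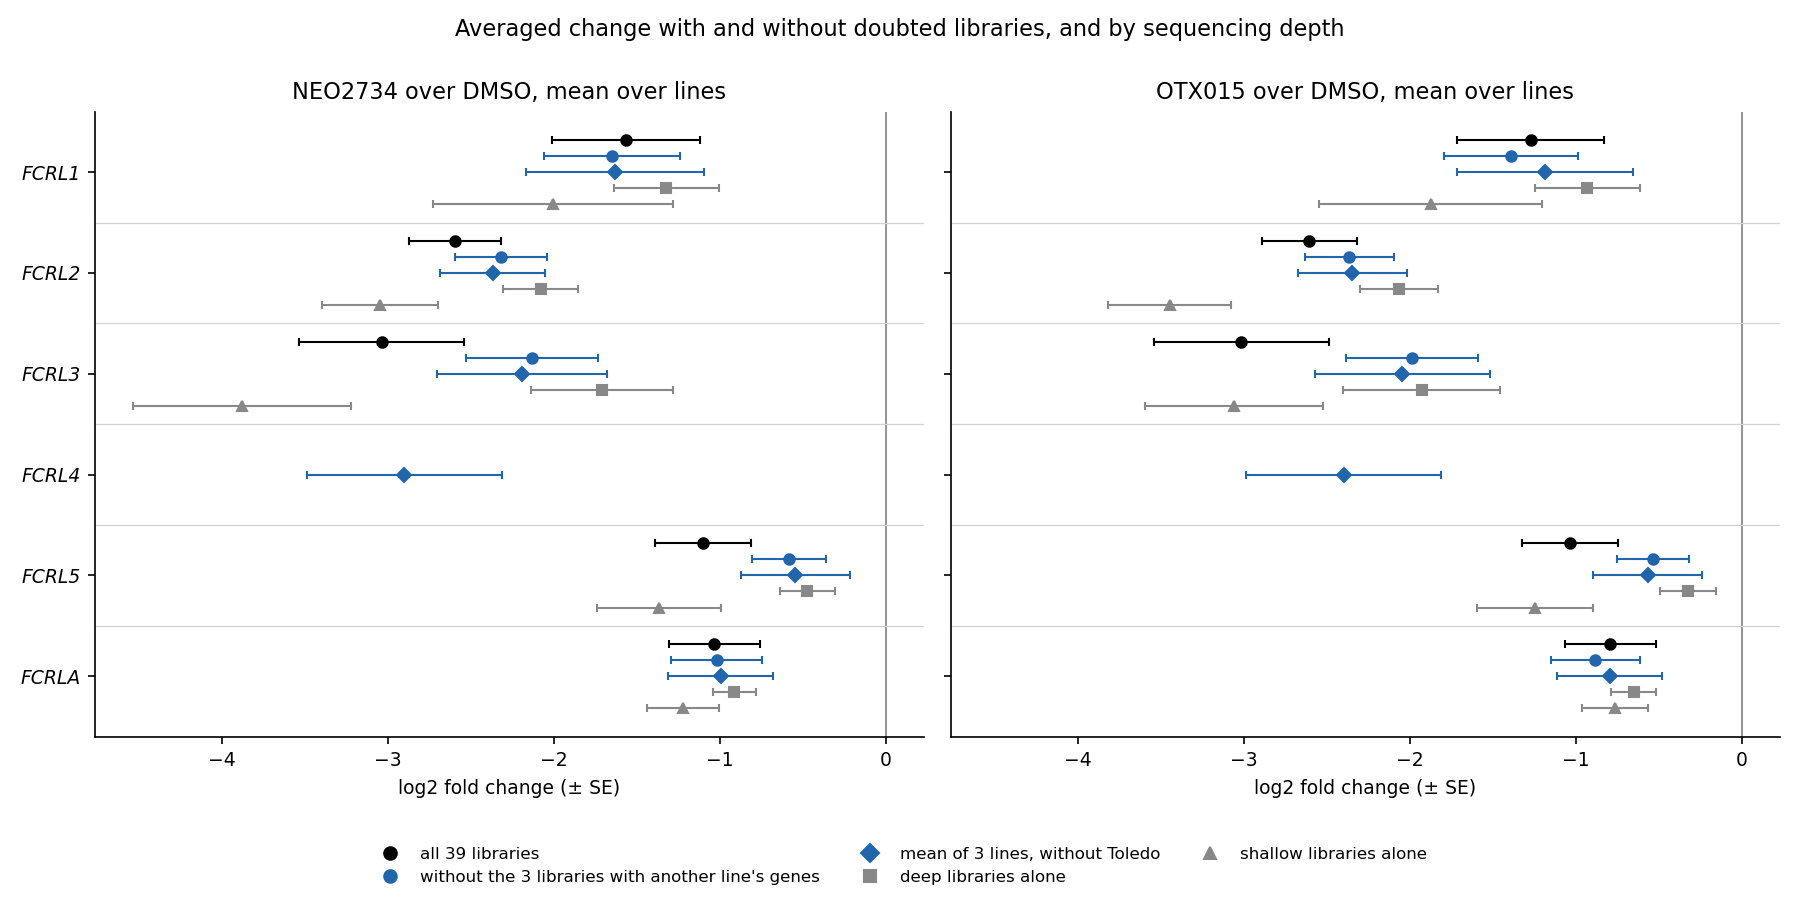
Averaged log2 difference from DMSO of each member ± 1 SE for 5 choices of libraries: all 39, without the 3 that hold another line's genes, the 3 lines other than Toledo, deep libraries alone and shallow libraries alone. For FCRL4 the value over 3 lines is shown because the Toledo compound groups held no count. FCRL5 moves from about -1.10 to about -0.55 with NEO2734 when Toledo is left out. In shallow libraries alone, FCRL3 with NEO2734 rests on a Toledo group with no count. FCRL1 there rests on OCILy10 groups with no count, with each compound.

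The response did not differ detectably between lines for any of the 5 members taken by name. In an F-test of a difference between the 4 lines, 0 of 5 passed with NEO2734, where 0.0156% of all genes passed, and 0 of 5 with OTX015 (0%). FCRL3 had an adjusted p of 0.970 and FCRL5 of 0.559 with NEO2734 by edgeR. At an unadjusted p under 0.05, 783 genes passed with NEO2734 and 478 with OTX015. The larger Toledo values of FCRL3 and FCRL5 are therefore not shown to differ from those of the other lines.

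NEO2734 and OTX015 were set against each other although their doses are not given, so the values stand side by side. Averaged over 4 lines, NEO2734 minus OTX015 was -0.29 for FCRL1 (95% interval -1.29 to 0.71), -0.02 for FCRL3 (-1.24 to 1.19), -0.06 for FCRL5 (-0.66 to 0.54) and -0.24 for FCRLA (-0.80 to 0.32) on the log2 scale. FCRL4 over the 3 lines other than Toledo was -0.50 (-1.80 to 0.79), and FCRL2, with no test, was 0.01 (-0.60 to 0.62). None of the 5 passed (adjusted p = 1.00 each by edgeR), where 0.0312% of all genes did, and 499 genes had an unadjusted p under 0.05. The intervals leave room for differences of more than 1 log2 unit in either direction for FCRL3 and in 1 direction for FCRL1 and FCRL4. In TMD8, 0 of these 5 members were apart between the compounds, where 2.29% of all genes were apart with NEO2734 lower. FCRL2, as a description, had 16.7, 13.6 and 11.5 CPM there with NEO2734 and 28.4, 18.6 and 23.2 with OTX015. In DOHH2, OCILy10 and Toledo the FCRL2 groups of the compounds overlapped. The DOHH2 mean of FCRL2 was 3.50 CPM with NEO2734 and 1.42 with OTX015.

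CB103 gave no detectable change of the family in OCILy10 with the raw column of replicate 1. That library was deposited with 2 differing columns of counts, and which is right is not known. The values below use the raw one. As CPM of its own total without TMM scaling, the other column had 16.1 against 58.1 for FCRL2. It had 9.68 against 71.1 for FCRL3 and 0.548 against 7.52 for FCRL4. FCRL5 was higher there, 260 against 164. With that column, 0 of the 5 members other than FCRL2 passed by edgeR. FCRL2 had 57.2, 44.5 and 81.1 CPM with CB103 and 54.6, 82.1 and 93.9 with DMSO. FCRL3 had 70.1, 78.4 and 99.5 with CB103 and 62.6, 119 and 96.9 with DMSO, and FCRL4 had 7.41, 17.9 and 12.9 with CB103 and 5.75, 22.9 and 4.02 with DMSO. The groups overlapped for all 6 members, where 1.31% of all genes were apart in the lower direction. FCRL5 had 162, 93.2 and 81.1 with CB103 and 144, 220.4 and 105 with DMSO, FCRLA 91.7, 102 and 43.3 with CB103 and 108, 91.1 and 45.7 with DMSO, and FCRL1 0, 1.14 and 0.921 with CB103 and 0.426, 0.576 and 1.51 with DMSO. The log2 differences were -0.34 ± 0.52 for FCRL2 (95% interval -1.40 to 0.72), -0.17 ± 0.79 for FCRL3 (-1.78 to 1.43), 0.20 ± 0.93 for FCRL4 (-1.71 to 2.11), -0.48 ± 0.56 for FCRL5, -0.04 ± 0.55 for FCRLA and -0.50 ± 0.96 for FCRL1. None of the 5 members other than FCRL2 passed (adjusted p = 1.0 each by edgeR), and edgeR called 0 of all 12814 genes (0%), with 273 at an unadjusted p under 0.05 and 27 called by DESeq2. Replicate 2 of CB103 holds Toledo genes, and without the 3 libraries of that kind FCRL4 was -0.14 instead, and FCRL1 held 1 count with CB103, so no fold is given.

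Genes that act beside the family were counted in lists chosen with earlier results of these data known. The counts describe the lists beside all tested genes (11.2% lower and 9.29% higher with NEO2734, 6.06% and 5.53% with OTX015). The list medians also use tested genes with no count in a compound group of a line, such as CCR1 below. The fitted fold of such a gene has no fixed size. Of 7 tested classical Fc receptors and other immunoglobulin-binding receptors, 4 were lower and 0 higher with NEO2734 (median log2 -1.36), and 3 lower with OTX015 (-0.99). FCGR2B, the inhibitory IgG receptor of B cells, was -1.45 ± 0.26 with NEO2734 (adjusted p = 0.000149 by edgeR) and -0.94 ± 0.25 with OTX015 (0.0134). FCMR, the IgM receptor, was -2.07 ± 0.37 (adjusted p = 0.000154) and -1.71 ± 0.37 (0.00258). TRIM21, a cytosolic antibody receptor, was -0.39 ± 0.12 (adjusted p = 0.0219) and -0.49 ± 0.12 (0.00829). FCGR2C, a near copy of FCGR2B whose reads may be shared with it, was -1.74 ± 0.53 with NEO2734 (adjusted p = 0.0186, and 0.193 without the 3 libraries that hold another line's genes) and -1.52 ± 0.53 with OTX015 (0.0592). FCRL6, a further relative of the family, was not analysed here.

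Of 11 tested further inhibitory receptors of B cells, a list that also holds FCGR2B, 7 were lower and 0 higher with each compound (median log2 -1.64 with NEO2734 and -1.52 with OTX015). SIT1, an adaptor with inhibitory motifs, was -1.63 ± 0.24 with NEO2734 (adjusted p = 9.61e-06 by edgeR) and -0.79 ± 0.23 with OTX015 (0.022). BTLA, an inhibitory receptor for HVEM, was -2.45 ± 0.40 (adjusted p = 4.45e-05) and -2.46 ± 0.43 (0.000293). CD72, a co-receptor that recruits SHP-1, was -1.65 ± 0.29 (adjusted p = 0.000149) and -1.32 ± 0.30 (0.0035). Without the 3 libraries that hold another line's genes, 7 of 12 tested were lower with NEO2734 and 6 of 12 with OTX015.

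Of 19 tested signalling partners of the family and of the B cell receptor, 8 were lower and 1 higher with NEO2734 (median log2 -0.46), and 1 was lower and 1 higher with OTX015 (-0.27). The higher gene was FYN, a Src-family kinase, at 2.60 ± 0.45 with NEO2734 (adjusted p = 9.18e-05 by edgeR) and 1.96 ± 0.46 with OTX015 (0.00459). The gene lower with OTX015 was BLNK, a B cell adaptor named here after its value was seen, at -0.87 ± 0.22 with NEO2734 (adjusted p = 0.0039) and -0.71 ± 0.21 with OTX015 (0.0283, and 0.109 without the 3 libraries that hold another line's genes). SYK, the kinase that binds activating motifs, was -0.83 ± 0.17 with NEO2734 (adjusted p = 0.000654) and -0.48 ± 0.17 with OTX015 (0.0635). INPP5D, which encodes the phosphatase SHIP1, was -0.72 ± 0.16 with NEO2734 (adjusted p = 0.00113) and -0.27 ± 0.15 with OTX015 (0.311).

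Of 24 B cell transcription factors, 13 were lower and 0 higher with NEO2734 (median log2 -0.78), and 8 lower and 0 higher with OTX015 (-0.61), a count that was 4 without the 3 libraries that hold another line's genes. PAX5, the factor that maintains B cell identity, was -1.54 ± 0.12 with NEO2734 (adjusted p = 2.22e-10 by edgeR) and -0.87 ± 0.12 with OTX015 (1.13e-05). IKZF1, a zinc finger factor of lymphoid cells, was -1.69 ± 0.23 (adjusted p = 5.69e-06) and -1.10 ± 0.23 (0.00186). EBF1, an early B cell factor, was -1.36 ± 0.20 (adjusted p = 1.71e-05) and -0.82 ± 0.20 (0.00697). POU2AF1, the co-activator of octamer-binding factors, was -1.46 ± 0.22 (adjusted p = 1.8e-05) and -0.70 ± 0.22 (0.0321).

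Of 14 tested genes of atypical and FCRL4-positive memory B cells, 6 were lower and 0 higher with NEO2734 (median log2 -1.56), and 4 lower and 0 higher with OTX015 (-1.29). Without the 3 libraries that hold another line's genes, 5 were lower with NEO2734 (median -0.95) and 1 with OTX015 (-0.50). CCR1, a chemokine receptor, was called lower with both compounds (adjusted p = 2.43e-05 with NEO2734 and 0.000108 with OTX015, by edgeR), but its Toledo compound groups held no count, so no fold is given. PALS2, a scaffold protein, was -0.82 ± 0.16 with NEO2734 (adjusted p = 0.000387) and -0.35 ± 0.16 with OTX015 (0.171). TNFRSF13B, which encodes the receptor TACI, was -1.95 ± 0.45 (adjusted p = 0.00208) and -1.10 ± 0.44 (0.105). LILRB1, an inhibitory receptor for HLA class I that is also in the list of inhibitory receptors, was -2.04 ± 0.49 with NEO2734 (adjusted p = 0.00312) and -1.54 ± 0.47 with OTX015 (0.0299). Neither call held without those 3 libraries, where LILRB1 was -1.05 with NEO2734 (adjusted p = 0.0529) and -0.35 with OTX015 (0.654). MS4A1, a B cell marker that encodes CD20, was -1.57 ± 0.25 with NEO2734 (adjusted p = 3.4e-05) and -1.51 ± 0.25 with OTX015 (0.00017).

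**Figure D5:**
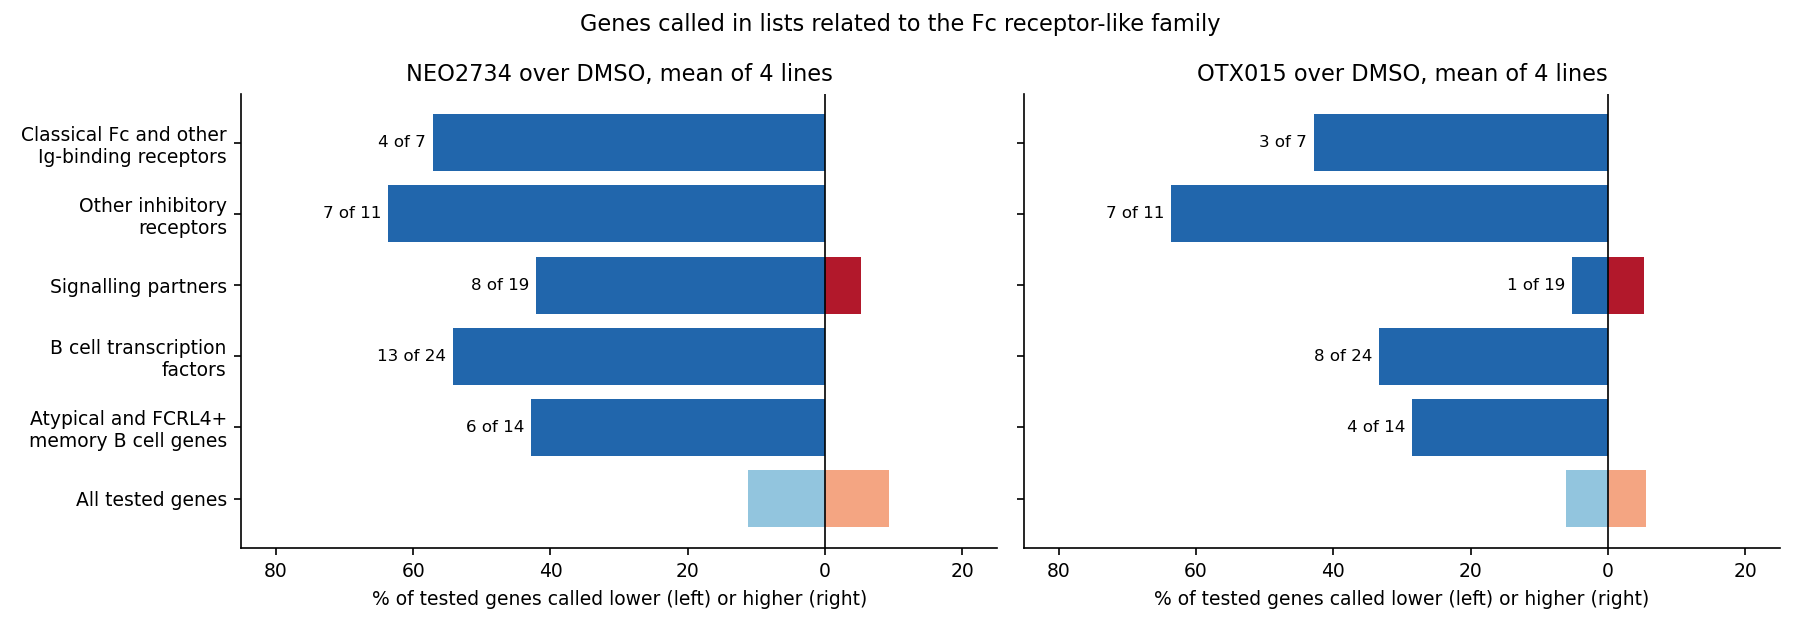
Percentage of the tested genes of each list called lower or higher, averaged over 4 lines, with NEO2734 and with OTX015, beside all tested genes. Every list lies to the lower side with NEO2734, FYN is the single list gene called higher, and all tested genes stand at 11.2% lower and 9.29% higher with NEO2734.

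Most of the family's tested neighbours on chromosome 1 were not called. Within 500000 bases of the FCRL1 to FCRL5 cluster, 1 of 6 tested genes was lower with NEO2734, beside 11.2% of all tested genes. It was CD1D, which presents lipids to T cells (-1.38 ± 0.31, adjusted p = 0.00164 by edgeR). Among the 6, ENSG00000227217 and KIRREL1 had SE of 4767 and 284 with NEO2734, so they could not be called. Without the 3 libraries that hold another line's genes the count was 2 of 6. CD1C, a further lipid-presenting protein, was then also called (adjusted p = 0.0128 by edgeR, against 0.134 with them). It then had no count in DOHH2 with NEO2734, so no fold is given. With OTX015 the count was 1 of 6, beside 6.06% of all tested genes. The gene was CD1C (adjusted p = 0.0402 by edgeR, with no count in DOHH2 with OTX015). CD1D with OTX015 was -0.67 ± 0.30 (adjusted p = 0.169). ETV3, an ETS-family repressor beside FCRL5, was 0.23 ± 0.23 with NEO2734 (adjusted p = 0.59). Within 500000 bases of FCRLA, 3 of 9 were lower with NEO2734, beside the same 11.2%, and 2 of 9 without those 3 libraries. With all libraries they were FCGR2B, FCGR2C and TOMM40L, a mitochondrial import protein (-0.70 ± 0.20, adjusted p = 0.0108 by edgeR). TOMM40L with OTX015 was -0.71 ± 0.20 (adjusted p = 0.0171), and the count with OTX015 there is not reported here.

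Across the 13 group means of log2 CPM, which share lines and depth classes, the members' levels were alike for some pairs. FCRL3 and FCRL5 correlated at r = 0.965, FCRL2 and FCRL3 at 0.926, FCRL2 and FCRL5 at 0.82, and FCRL1 and FCRLA at 0.891. Among 11800 other genes, those most like FCRL2 were CTSS (r = 0.955), IKZF1 (0.948), HTATIP2 (0.945), MGAT3 (0.941) and BID (0.939). TLR10 (0.982), CNN2 (0.977) and FGD2 (0.971) were most like FCRL3, and STEAP3 (0.974), SLC38A5 (0.97) and SLC7A7 (0.959) most like FCRL4. For FCRL5 they were POU2F2-AS1 (0.991, an antisense gene whose reads may be its partner's), ARHGEF3 (0.988) and FGD2 (0.986), for FCRL1 PRELID3B (0.966), IFT81 (0.96) and TLR7 (0.958), and for FCRLA MSI2 (0.952), IFT81 (0.944) and STRN3 (0.939). Without the 3 libraries that hold another line's genes, BID ranked 19 for FCRL2 and IFT81 ranked 43 for FCRL1. These correlations are descriptions over 13 points.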

How the data were processed

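RNA of 39 libraries was sequenced from Trizol extracts with an Illumina TruSeq RNA kit, per the labels. The authors deposited 2 tables of whole-number counts per Ensembl gene. Of the 39 columns, 38 were equal in both tables, and values were taken from the one whose name says raw. STAR, edgeR and hg38 are named in the submitters' processing notes. Their versions and the counting program were not given in the sources used here. Shared label text names other compounds and a longer treatment, and each sample's own label was used. Gene symbols came from a separate list of gene names, which named 15590 of 15808 IDs. Positions and exon lengths came from GENCODE release 29.

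Counts were fitted with edgeR 4.0.16 (R 4.3.3, TMM scaling, filterByExpr, quasi-likelihood test, 13 group means, 26 residual degrees of freedom, no replicate block), and p-values were adjusted by Benjamini-Hochberg over 12814 genes, with 0.05 as the threshold. SE are from the fitted negative binomial model, and those of the alternatives in the figures from the test statistic. Fitted log2 values use edgeR's prior count, and the member-by-member permutation tests and the group means for correlations use log2 CPM with a prior count of 2. Mean ± SD are over 3 libraries. The floor for a group with no count is 3 counts, and intervals are 95%; both cover counting or model error only. On simulated counts of the averaged NEO2734 comparison (12235 genes), 80% of genes lowered 2-fold and 94% of those lowered 4-fold were called, and 6 of 184 calls were false. Each simulated gene had the same mean in every line, and changed genes were drawn from those of higher mean level. These shares therefore do not carry over to members that differ between lines or hold few counts.

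The members and lists were chosen with earlier results of these data known. Named genes are all 6 members, up to 4 called genes of lowest p per list, the 3 genes most like each member (5 for FCRL2) and neighbours within 500000 bases. The 3 libraries that hold another line's genes were known from an earlier analysis of these data. They were left out when the private genes were chosen. Private genes had over 10 CPM in each remaining library of 1 line and under 1 CPM in most libraries of the other lines. Deep libraries hold over 5000000 counts.

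Alternatives were DESeq2 1.42.0, its size factors in edgeR, library totals, no filter, a replicate block, each library left out, the 3 libraries left out together, deep or shallow libraries alone and the other table's column. The mean without Toledo was added after the data were seen. Same-numbered libraries were taken as pairs where all 3 correlations of their deviations from the group means were above 0.1. This held in DOHH2 (0.262 to 0.870 with NEO2734 and 0.513 to 0.895 with OTX015), TMD8 (0.358 to 0.854 and 0.327 to 0.891) and OCILy10 with NEO2734 (0.785 to 0.882). It did not hold in OCILy10 with OTX015 (-0.58 to 0.697) or CB103 (0.00843 to 0.724) or in Toledo (-0.62 to -0.10 and -0.19 to 0.602). Libraries of 1 depth class also correlated across numbers: 0.735 for the deep Toledo libraries DMSO 1 and NEO2734 3, where DMSO 1 and NEO2734 1 had -0.62, and 0.437 and 0.597 across numbers in shallow DOHH2 libraries with NEO2734, beside 0.416 and 0.262 for the same numbers. The values of some single genes in the lists and among the neighbours are not reported here.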

Additional observations from a re-analysis of the deposited data

How the results depend on the processing

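For the averaged NEO2734 contrast 5 of 5 members passed, and 1 did in the deep libraries alone. For OTX015, 4 of 5 passed, 0 in the deep libraries alone and 2 without Toledo, a setting added after the data were seen. Without the 3 libraries that hold another line's genes 4 passed with each compound, and without Toledo 4 did with NEO2734. The OTX015 count also moved with the method: 5 passed with DESeq2 and with its size factors in edgeR, and 3 with no filter. With NEO2734 it was 5 in each of these settings. Leaving out 1 library gave 4 to 5 with NEO2734, 3 to 5 with OTX015, and 0 for NEO2734 against OTX015, CB103 and the differences between lines. Of 40 tests within lines 6 passed; 16 did with the replicate block, 2 without the 3 libraries that hold another line's genes, 0 in the deep libraries alone, and 3 to 7 with 1 library left out (3 without replicate 2 of Toledo DMSO or any 1 Toledo OTX015 library). The block was applied to all lines, including those whose numbers did not pair, and moved no averaged count, although with OTX015 FCRL1 no longer passed (adjusted p = 0.0525) and FCRLA did (0.00141), by edgeR. The deep libraries leave 11 of 13 groups with 1 library and 2 residual degrees of freedom, so their counts of calls rest on the spread of 2 OCILy10 groups. In DMSO, 11 of 30 differences between pairs of lines passed for the 5 members other than FCRL2. The DMSO counts by setting also include FCRL2, with 3 of 6 here, which is no test because the family's choice used these libraries. With FCRL2 included, the counts were 14 of 36, 23 in the deep libraries alone and 11 to 21 with 1 library left out. They describe how the count moved, and those without FCRL2 are not given for these settings.

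The sign of some small differences that did not pass turned, on the log2 scale. For NEO2734 against OTX015, FCRL3 (-0.02) was 0.0029 with library totals, 0.016 with no filter and 0.22 in deep libraries alone, FCRL4 was 0.034 in deep libraries alone and FCRL5 (-0.06) was 0.023 without Toledo. FCRL1 with NEO2734 in DOHH2 (-0.39) was 0.093 in shallow libraries alone. For CB103, FCRL4 (0.20) was -0.14 without the 3 libraries, -0.93 in deep libraries alone and -0.090 with the other table's column, FCRL5 (-0.48) was 0.31 with that column, and FCRLA (-0.04) was 0.67 in shallow libraries alone and 0.19 with that column. With 1 library left out, the ranges were -0.39 to 0.40 for FCRL1, -1.12 to 0.24 for FCRL3 and -0.22 to 0.041 for FCRL5 between the compounds, -0.68 to 0.15 for FCRL1 with NEO2734 and -0.73 to 0.22 with OTX015 in DOHH2, and -0.32 to 0.23 for FCRL5 with NEO2734 in OCILy10. For CB103 they were -2.12 to 0.50 for FCRL1, -0.41 to 0.051 for FCRL3, -0.18 to 1.35 for FCRL4 and -0.32 to 0.24 for FCRLA. The cause was not tested in these cases. Scaling moved the median of all genes by less than 0.1.

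FCRL1, FCRL3 and FCRL4 are limited where a group holds few or no counts. Deep libraries are among these: FCRL4 had 0 counts in the 3 deep Toledo libraries and FCRL1 had 0 to 4 in the 6 deep OCILy10 libraries.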

Other observations

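The 2 deposited tables differed in the column of OCILy10 CB103 replicate 1, which held 5474462 counts in the table named as normalised and 11430777 in the table named as raw. Per 1000000 counts of its own total, that column had 16.1 for FCRL2 against 58.1 in the raw table, 9.68 against 71.1 for FCRL3 and 0.548 against 7.52 for FCRL4. FCRL5 had 260.1 against 164, FCRLA 88.4 against 93.1, and FCRL1 no count in either.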
